A study of Rattus norvegicus with 10 samples.

Results

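Thermogenic genes of brown fat were read in the abdominal aorta of inbred rats, an artery that carries fat along its outer wall. The genes were Ucp1, Cidea, Ppargc1a, Dio2, Cox7a1, Cox8b, Cpt1b and Fabp3, taken by gene symbol whatever their signal. The set itself was chosen with earlier results of these data known. Of 9 symbols in the rule, 8 were found, each on 1 probe set, so they are 8 of the 10411 genes named on the arrays and 8 of the 15866 probe sets tested. Elovl3, a fatty acid elongase of brown fat, was not analysed here. RNA came from Brown Norway (BN) and LOU rats, 5 arrays per strain, aged 5 weeks per the array labels, although the growth notes speak of keeping rats to at most 18 weeks. The tissue label gives the abdominal aorta, while the extraction notes also name the thoracic aorta. All rats were untreated, and what separates the groups is the strain. The labels give neither the sex nor whether each array came from its own rat, so p-values measure only the spread between these arrays, which may be technical.

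Brown fat burns fatty acids to make heat. Noradrenaline released by sympathetic nerves acts through cAMP on the brown fat cell, lipid stored in droplets is broken down, and the fatty acids are carried into mitochondria and oxidised. UCP1 then lets protons back across the inner mitochondrial membrane without ATP being made. In rodents, brown fat cells surround parts of the aorta as perivascular fat. Several of the genes are not restricted to brown fat: Cpt1b, Fabp3, Cox7a1, Cox8b and Ppargc1a are also active in heart and skeletal muscle.

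Each array had been scaled to a like trimmed mean, so close medians were set in advance and do not measure quality. Median signal was between 97.1 and 104.5 on the 10 arrays, and 69.7% to 81.9% of probe sets lay above the background level. That level was set on each array so that 95% of its 45 bacterial controls lay under it (21.2 to 49.2). From BN array 1 to BN array 5 it fell from 49.2 to 21.2, while the percentage above it rose from 69.7% to 81.9%. RNA quality was not examined. BN array 3 stood apart in nerve and Schwann cell markers (list mean 2.11 on the centred log2 scale, against -1.0 to 0.47 on the others), and LOU array 1 in macrophage markers (1.00, against -0.37 to 0.13). Over all probe sets, 125 passed limma's test, which is 0.788% (39 higher and 86 lower in BN).

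The start regions of 3 of the genes are shown. Cox8b varied with Ucp1 across arrays, as given further on, and Ppargc1a differs from Ucp1 and Cox8b in the control elements searched. Each is the 250 bases before the gene start in RefSeq, build GRCr8, read 5′ to 3′ on the strand of the gene. Ucp1 lies on the minus strand at chr19:41721422-41721671, Ppargc1a on the plus strand at chr14:63634058-63634307, and Cox8b on the minus strand at chr1:205408274-205408523. Capitals mark a TATA box (TATAAA) in Ucp1 and Cox8b and a cAMP response element (TGACGTCA) in Ppargc1a.
Ucp1: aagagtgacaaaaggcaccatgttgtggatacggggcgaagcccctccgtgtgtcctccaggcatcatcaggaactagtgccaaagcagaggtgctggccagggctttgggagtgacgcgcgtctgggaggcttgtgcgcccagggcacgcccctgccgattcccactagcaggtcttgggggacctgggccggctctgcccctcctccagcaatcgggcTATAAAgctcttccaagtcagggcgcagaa
Ppargc1a: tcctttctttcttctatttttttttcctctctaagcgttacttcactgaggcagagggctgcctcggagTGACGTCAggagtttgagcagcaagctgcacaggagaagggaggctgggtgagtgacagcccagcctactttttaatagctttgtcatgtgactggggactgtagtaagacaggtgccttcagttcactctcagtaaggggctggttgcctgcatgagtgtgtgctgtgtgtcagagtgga
Cox8b: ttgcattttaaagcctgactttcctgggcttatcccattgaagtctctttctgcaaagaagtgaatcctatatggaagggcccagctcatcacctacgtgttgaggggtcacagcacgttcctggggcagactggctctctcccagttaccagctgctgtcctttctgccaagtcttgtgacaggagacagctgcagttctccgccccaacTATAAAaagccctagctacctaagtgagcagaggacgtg
Start regions of 8 of the 9 symbols were in the table, all but that of Cpt1b. The cAMP response element, the sequence bound by CREB, was found in that of Ppargc1a alone, 181 to 174 bases before the start, and in 1.59% of 33469 start regions of rat genes. TATAAA was found 30 to 25 bases before the start of Ucp1, 39 to 34 before that of Cox8b and 220 to 215 before that of Dio2, and in 12.9% of all. The sequence TCAAGGTCA of estrogen-related receptors was in none of the 8 and in 0.388% of all, and the direct repeat bound by PPAR and RXR was in none of the 8 and in 0.0508% of all. Both strands were searched, and no match overlapped another. A match is a description of the letters, and the strong enhancers known upstream of Ucp1 in rodents lie outside this window.

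Ucp1, the uncoupling protein that defines brown fat, was far above background on every array of both strains. Its signal was 9039, 12345, 4677, 4701 and 1005 on BN arrays 1 to 5, and 5451, 2966, 751, 485 and 3270 on LOU arrays 1 to 5. BN arrays 1 and 2 exceeded every LOU array, BN array 5 lay among the low LOU arrays, and the strains overlapped. Within a strain the highest signal was 12.3-fold the lowest in BN and 11.2-fold in LOU. The difference between strain means on the log2 scale was 2.64-fold (log2 difference BN minus LOU 1.40, 95% interval -0.42 to 3.22, limma adjusted p = 0.506). A range over 5 arrays and a difference of means are unlike measures. The standard deviation within strains was 1.45 on the log2 scale, close to the strain difference. Without BN array 5 the range in BN was 1.40 on the log2 scale, against 3.62 with it. In whole tissue, more brown fat cells and more RNA per cell cannot be told apart. The ranges are read here as perivascular brown fat RNA in the samples, a reading that was not tested.

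**Figure D1:**
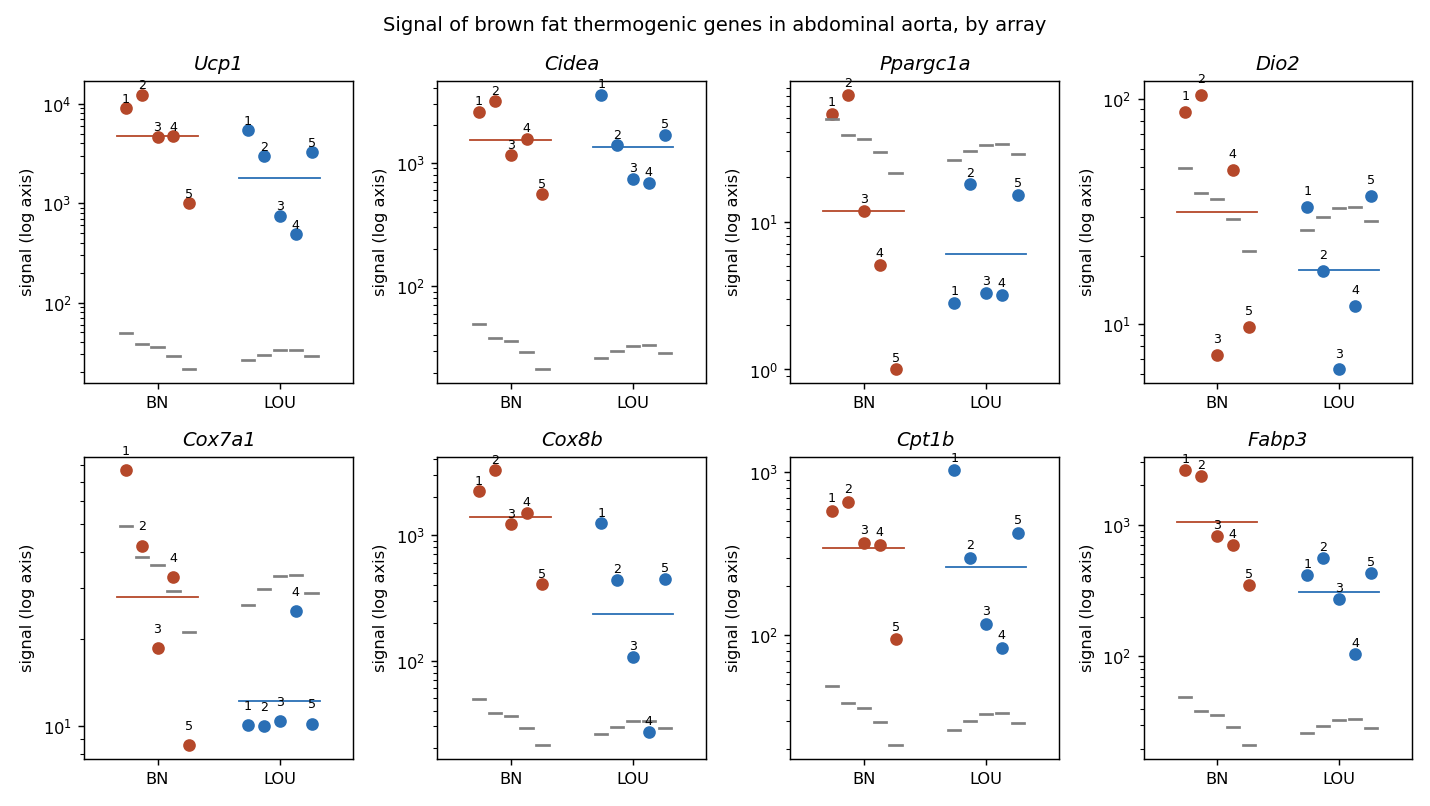
Signal (log axis) of the 8 genes on each array, BN at left and LOU at right, with array numbers above the points. Horizontal lines are means of log2 signals per strain and grey dashes the background level of each array. Ucp1, Cidea, Cpt1b and Fabp3 lie above background on all 10 arrays, Cox8b on 9, and Ppargc1a, Dio2 and Cox7a1 on fewer.

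Cidea, a lipid droplet protein of brown fat cells, gave another order of the strains at the top. Its signal was 2577, 3142, 1149, 1563 and 556 on BN arrays 1 to 5 and 3537, 1375, 738, 685 and 1685 on LOU arrays 1 to 5. LOU array 1 was the highest of all 10 and BN array 5 the lowest, and the strains covered nearly the same range. The log2 difference was 0.19 (95% interval -1.05 to 1.44, limma adjusted p = 0.911), and its sign turned without BN array 2, LOU array 3 or LOU array 4 (-0.07, -0.02 and -0.05).

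The regulators gave little signal. Ppargc1a encodes the coactivator PGC-1α, which drives mitochondrial and thermogenic genes, and Dio2 the deiodinase that makes active thyroid hormone inside the brown fat cell. Ppargc1a signals were 53.4, 71.9, 11.8, 5.1 and 1.0 in BN and 2.8, 17.8, 3.3, 3.2 and 15.2 in LOU, so that BN arrays 1 and 2 alone were above background. Dio2 signals were 87.9, 104, 7.3, 48.3 and 9.7 in BN and 33.3, 17.3, 6.3, 12.1 and 37.0 in LOU, with BN arrays 1, 2 and 4 and LOU arrays 1 and 5 above background. Both genes were highest on BN arrays 1 and 2, the arrays with the highest Ucp1. The log2 differences were 0.97 (95% interval -1.57 to 3.51) for Ppargc1a and 0.85 (-1.0 to 2.71) for Dio2, neither past limma's test (adjusted p = 0.757 and 0.698), and the signal was too near background for a fold in Ppargc1a.

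The respiratory chain genes Cox7a1 and Cox8b encode tissue-restricted subunits of cytochrome c oxidase. Cox8b gave 2224, 3258, 1216, 1506 and 405 on BN arrays 1 to 5 and 1234, 437, 108, 27.0 and 445 on LOU arrays 1 to 5. BN arrays 1, 2 and 4 lay above every LOU array, LOU array 4 was not above its background level, and the strains overlapped. The log2 difference of Cox8b was 2.58 (95% interval 0.43 to 4.74, limma adjusted p = 0.284), the largest of the 8 genes, and without LOU array 4 it was 1.81. Cox7a1 was dim, with 76.5, 42.0, 18.6, 32.7 and 8.6 in BN and 10.1, 10.0, 10.4, 25.0 and 10.2 in LOU. BN arrays 1, 2 and 4 were above background and no LOU array was, at signals too low for a bound on the fold (log2 difference 1.19, limma adjusted p = 0.377).

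The fatty acid supply genes differed from each other. Fabp3 encodes a cytosolic fatty acid carrier and Cpt1b the muscle and brown fat form of the enzyme that commits fatty acids to mitochondrial oxidation. Fabp3 gave 2576, 2356, 821, 701 and 347 on BN arrays 1 to 5 and 416, 563, 271, 104 and 433 on LOU arrays 1 to 5. In 4 of 5 BN arrays it exceeded every LOU array, and BN array 5 overlapped them. The log2 difference was 1.75 (95% interval 0.35 to 3.14, limma adjusted p = 0.265). Cpt1b gave 582, 661, 370, 361 and 94.5 in BN and 1027, 299, 118, 83.7 and 427 in LOU. The highest signal was on LOU array 1, the strains shared nearly 1 range, and the log2 difference was 0.38 (95% interval -1.25 to 2.01, limma adjusted p = 0.860), with the sign turned without LOU array 4 (-0.03).

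**Figure D2:**
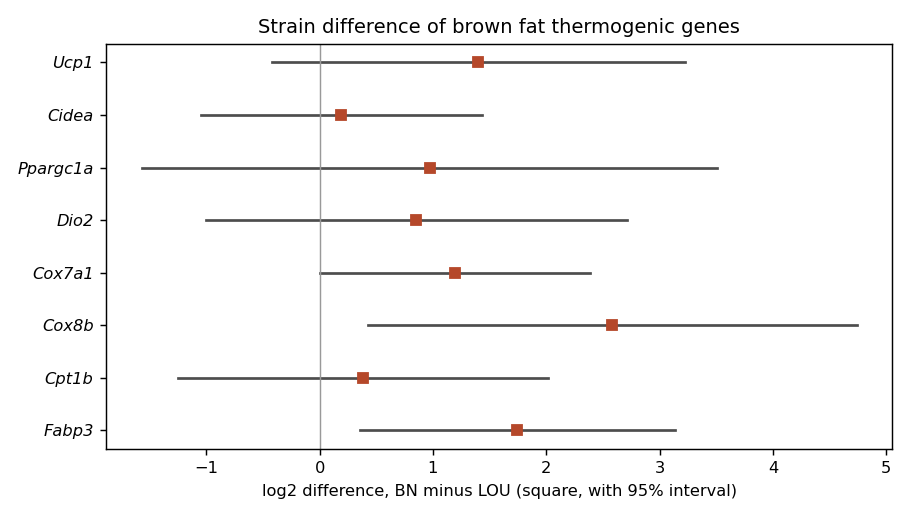
Log2 difference BN minus LOU of the 8 genes (squares) with limma's 95% intervals. All 8 squares lie above 0, from 0.19 for Cidea to 2.58 for Cox8b, and the intervals of Cox8b, Fabp3 and, narrowly, Cox7a1 leave out 0 before adjustment over all probe sets.

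Counted over the 8 genes, all had a log2 difference above 0, where 46.5% of all probe sets did, and their median was 1.08 against -0.03 over all probe sets. The median moved with the dim genes, and was 0.54 with a floor of 32, where Ppargc1a had 0.38, and 0.67 with a pseudocount of 16. None of the 8 passed limma's test after adjustment over the 15866 probe sets, where 0.788% passed (0.246% higher in BN). At an unadjusted limma p under 0.05 there were 3 (Fabp3, Cox8b and Cox7a1), all higher in BN, where 13.3% of all probe sets were (5.16% higher in BN). In none of the 8 did the signals of the strains fail to overlap, which they did in 4.18% of all probe sets (1.41% with BN higher). A difference of at least 1 was found in 4 (Ucp1, Cox7a1, Cox8b and Fabp3), where 2.21% of all probe sets had one. With a floor of 32 that of Cox7a1 was 0.34 and with a pseudocount of 16 it was 0.71, and that of Ucp1 was 0.93 without LOU array 4. Of the 8 genes, 4 were above background on all 10 arrays, where 63% of all probe sets were. The genes are not independent, since they follow the same arrays. None passed with any 1 array left out.

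The spread within strains was large beside that of other probe sets. The standard deviation within strains on the log2 scale was 1.45 for Ucp1, 1.72 for Cox8b, 1.29 for Cpt1b, 1.10 for Fabp3 and 0.98 for Cidea, against a median of 0.34 over all probe sets. These 5 bright genes lay between the 88.7th and the 99.3rd percentile of all probe sets in this measure.

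Arrays high in Ucp1 were high in the other bright genes. With log2 signals centred on the strain mean, Pearson's r with Ucp1 over the 10 arrays was 0.98 for Cpt1b, 0.96 for Cidea, 0.95 for Cox8b and 0.89 for Fabp3, by an exact permutation test within strains (two-sided p = 0.000139, 6.94e-05, 6.94e-05 and 0.00167; adjusted over 7 relations 0.000324, 0.000243, 0.000243 and 0.00292). The value 6.94e-05 is the smallest that the 14400 permutations can give. The share of all genes that would pass this test was not computed. By r alone, 5.6% of 7364 other named genes above background on all arrays were over 0.8. Spearman's rho was 0.99, 1, 0.95 and 0.81 for Cpt1b, Cidea, Cox8b and Fabp3 (exact permutation p = 0.000347, 6.94e-05, 6.94e-05 and 0.0105; adjusted 0.00081, 0.000243, 0.000243 and 0.0147). Without BN array 5 and LOU array 4, the 2 arrays farthest from the median of Ucp1, r was 0.94 for Cpt1b, 0.94 for Cidea, 0.97 for Cox8b and 0.69 for Fabp3 (exact permutation p = 0.00347, 0.00868, 0.00174 and 0.0556), so that of Fabp3 did not hold without them.

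Of the 3 dim genes, Dio2 and Ppargc1a passed the same test and Cox7a1 did not. The share of all genes that would pass at such r was not computed. The 5.6% given above, for r over 0.8 in genes above background on all arrays, does not apply here. Pearson's r was 0.75 for Dio2 and 0.72 for Ppargc1a (exact permutation p = 0.0131 and 0.0233, adjusted 0.0183 and 0.0271), and 0.32 for Cox7a1 (exact permutation p = 0.392, adjusted 0.392). Spearman's rho was 0.83, 0.54 and 0.27 for Dio2, Ppargc1a and Cox7a1 (exact permutation p = 0.00681, 0.143 and 0.482; adjusted 0.0119, 0.166 and 0.482). Dio2 did not pass without BN array 2 (r = 0.71, adjusted exact permutation p = 0.053). Ppargc1a did not pass without BN array 1, 2 or 5 (r = 0.70, 0.67 and 0.52, adjusted exact permutation p = 0.0502, 0.0745 and 0.157), and r of Cox7a1 was -0.22 without BN array 5. The r of Cox7a1 joins BN arrays, where it was highest on arrays 1 and 2 and lowest on array 5 as Ucp1 was, with LOU arrays, where all 5 signals were below background and have no order. Likewise Ppargc1a was above background on BN arrays 1 and 2 alone, and its other signals have no order. With a floor of 32, r was 0.51 for Ppargc1a, which did not pass, and 0.60 for Dio2, which did (adjusted exact permutation p = 0.175 and 0.0257). Without the 2 farthest arrays r was 0.76 for Dio2, 0.49 for Ppargc1a and 0.32 for Cox7a1 (exact permutation p = 0.00694, 0.219 and 0.486), so that of Ppargc1a rested on them.

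**Figure D3:**
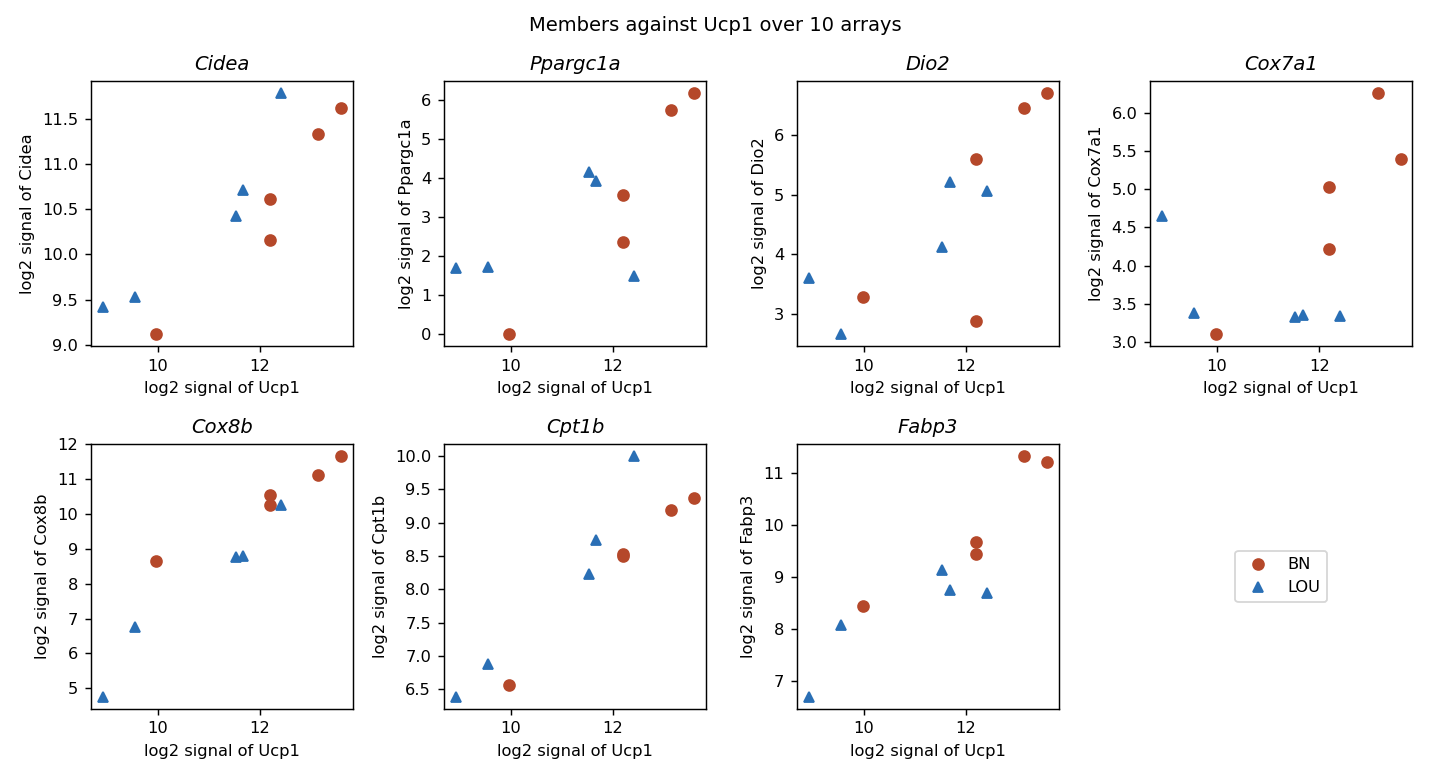
Log2 signal of each of the other 7 genes against log2 signal of Ucp1, 1 point per array, circles for BN and triangles for LOU. Cidea, Cox8b and Cpt1b follow Ucp1 in both strains (r = 0.96, 0.95 and 0.98 after centring on strain). Cox7a1 (r = 0.32) is high on the BN arrays high in Ucp1, and its LOU signals are all below background.

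Arrays with a like level of Ucp1 allow the other genes to be set side by side. BN arrays 3 and 4 had Ucp1 signals of 4677 and 4701, and LOU array 1 had 5451. On these arrays Cpt1b was 370 and 361 in BN against 1027 in LOU, Cidea 1149 and 1563 in BN against 3537 in LOU, and Fabp3 821 and 701 in BN against 416 in LOU. Cox8b was 1216 and 1506 in BN against 1234 in LOU. The LOU side is 1 array, which stood apart in macrophage markers, as BN array 3 did in nerve markers. BN array 5 and LOU array 3 had Ucp1 signals of 1005 and 751. There Cpt1b was 94.5 and 118, Cidea 556 and 738, Fabp3 347 and 271, and Cox8b 405 and 108.

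Over all 10 arrays the level of a gene beside Ucp1 was taken as its log2 signal minus that of Ucp1 on the same array. The measure was added after seeing the data. Its level depends on the probe sets and has no meaning by itself, so only its difference between strains is given. Cox8b minus Ucp1 was -1.77 ± 0.29 in BN and -2.95 ± 0.74 in LOU (SD, n = 5 each), a difference of 1.18 with no overlap (exact permutation test, two-sided, p = 0.00794, the smallest that 5 against 5 can give, adjusted over 7 genes 0.0278). Cpt1b minus Ucp1 was -3.79 ± 0.31 in BN and -2.77 ± 0.36 in LOU (n = 5 each), a difference of -1.02 with no overlap (exact permutation p = 0.00794, adjusted 0.0278). Cox8b was thus higher and Cpt1b lower in BN relative to Ucp1. The share of all genes that would pass or not overlap on this measure was not computed. The difference of Ucp1 itself, 1.40 and not past limma's test, is subtracted from that of every gene. The adjusted values of Cox8b and Cpt1b were both 0.0556 without BN array 1, 2, 3 or 4. The differences were then 1.15 to 1.25 for Cox8b and -1.05 to -0.91 for Cpt1b. Leaving out an array cannot bring an overlap, so this rise is a step of a test with few possible splits. With quantile normalization or a pseudocount both values were also 0.0556. The lowest value of Cox8b minus Ucp1, -4.17, was on LOU array 4, where Cox8b was not above background. Without that array the difference of Cox8b was 0.88 (adjusted exact permutation p = 0.0278), the lowest with 1 array left out.

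Cidea minus Ucp1 was -1.65 ± 0.48 in BN and -0.44 ± 0.67 in LOU (n = 5 each), a difference of -1.21 that missed the threshold (exact permutation p = 0.0238, adjusted 0.0556, and 0.037 without BN array 5). The differences were 0.35 for Fabp3, -0.43 for Ppargc1a, -0.55 for Dio2 and -0.21 for Cox7a1 (adjusted exact permutation p = 0.711, 0.796, 0.711 and 0.841). The measure moves with Ucp1 where a gene covers a wider or narrower range than Ucp1 does. Cox8b covered 5.51 on the log2 scale in LOU, where Ucp1 covered 3.49, and Cidea covered 2.37. The part of this in the strain differences was not tested.

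**Figure D4:**
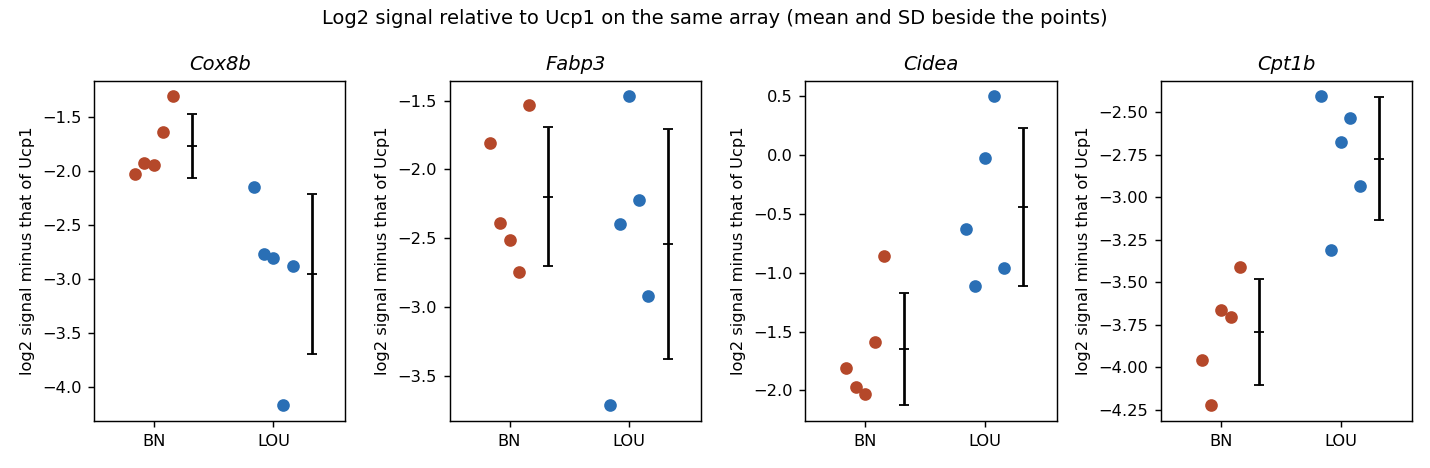
Log2 signal of Cox8b, Fabp3, Cidea and Cpt1b minus that of Ucp1 on the same array, BN at left and LOU at right, 1 point per array, with mean and SD beside the points (n = 5 each). BN lies wholly above LOU for Cox8b and wholly below it for Cpt1b, and the strains overlap for Fabp3 and Cidea.

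Further genes of brown fat cells were taken from a list of regulators, inputs and markers, of which 23 of 38 were measured. None passed limma's test in either direction, 15 had a difference above 0 and the median was 0.31, where over the 10411 named genes 47.7% were above 0 with a median of -0.02. The 3 brightest were Letm1, a mitochondrial ion exchanger, at 568 ± 101 in BN and 386 ± 27.2 in LOU, Adcy3, which makes cAMP, at 296 ± 52.9 in BN and 268 ± 37.9 in LOU, and Adrb3, the β3 adrenergic receptor, at 279 ± 112 in BN and 354 ± 202 in LOU (SD, n = 5; limma adjusted p = 0.118, 0.769 and 0.782). Adrb3 was highest on LOU array 1 (702), as were Cidea and Cpt1b. Of 14 genes of the list above background on all arrays, 7 had an r with Ucp1 over 0.8 (10 arrays, centred on strain), with a median of 0.73 and a lowest value of -0.31. Zic1, a transcription factor that marks brown fat in mice, was among them, with r = 0.10, at 50.4 to 86.3 in BN and 50.1 to 86.8 in LOU. Kcnk3, a potassium channel of brown fat cells, had r = 0.93, at 133 to 357 in BN and 101 to 219 in LOU. Zic1 and Kcnk3 were chosen after their values were seen.

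Enzymes of fatty acid oxidation and subunits of oxidative phosphorylation (respiratory chain and ATP synthase) were read next. Of 22 fatty acid oxidation genes, 20 were above 0 in BN minus LOU with a median of 0.44. Of 57 nuclear-encoded subunits of oxidative phosphorylation 54 were, with a median of 0.33. None of either list passed limma's test. Hadhb and Acadl, enzymes of the oxidation cycle, were at 2456 ± 1096 and 2225 ± 1105 in BN and 1772 ± 1130 and 1733 ± 1199 in LOU. Acsl1, which activates fatty acids, was at 1807 ± 1013 in BN and 1836 ± 911 in LOU (SD, n = 5). Among the oxidative phosphorylation genes, Atp5f1b was at 6926 ± 2155 and Cox4i1 at 5612 ± 1318 in BN, against 4761 ± 1313 and 4690 ± 1623 in LOU. As a description, r with Ucp1 was taken over the 10 arrays, centred on strain. It was over 0.8 in 19 of 22 fatty acid oxidation genes and 39 of 56 oxidative phosphorylation genes above background. Of 7364 genes, 5.6% had such an r. The other genes of the 2 lists reached down to -0.88 among the oxidation genes and -0.27 among the oxidative phosphorylation genes. The list mean of the oxidative phosphorylation genes lay between 0.65 and -0.49 on the 10 arrays, against 1.78 to -2.47 for the 5 bright genes.

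Genes shared by white and brown fat cells moved with the brown fat genes over the arrays, 17 of 24 above background with an r with Ucp1 over 0.8. Of 25 measured, 20 were above 0, the median was 0.35 and none passed. Thrsp, a lipogenic nuclear protein, was at 6347 ± 3365 in BN and 3418 ± 2874 in LOU, Fasn, the fatty acid synthase, at 6088 ± 2402 in BN and 4587 ± 2391 in LOU, and the fat cell carbonic anhydrase Car3 at 3332 ± 1468 in BN and 6014 ± 2030 in LOU (SD, n = 5; limma adjusted p = 0.549, 0.685 and 0.292). The list mean was 0.60 on BN array 4 and -0.31 on BN array 3, although Ucp1 differed little between these 2 arrays. Leptin (Lep), the hormone of white fat cells and named after its values were seen, was not above background on any of the 10 arrays, with signals of 4.1 to 10.6 in BN and 4.7 to 11.8 in LOU. Of 6 measured genes higher in white than in brown fat, 4 were above 0 with a median of 0.07, and the 3 brightest, Sncg, Igfbp3 and Agt, did not pass (limma adjusted p = 0.207, 0.944 and 0.405). These 3, the only ones of the list above background on all arrays, had an r with Ucp1 of -0.03 for Sncg, 0.74 for Igfbp3 and 0.79 for Agt.

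**Figure D5:**
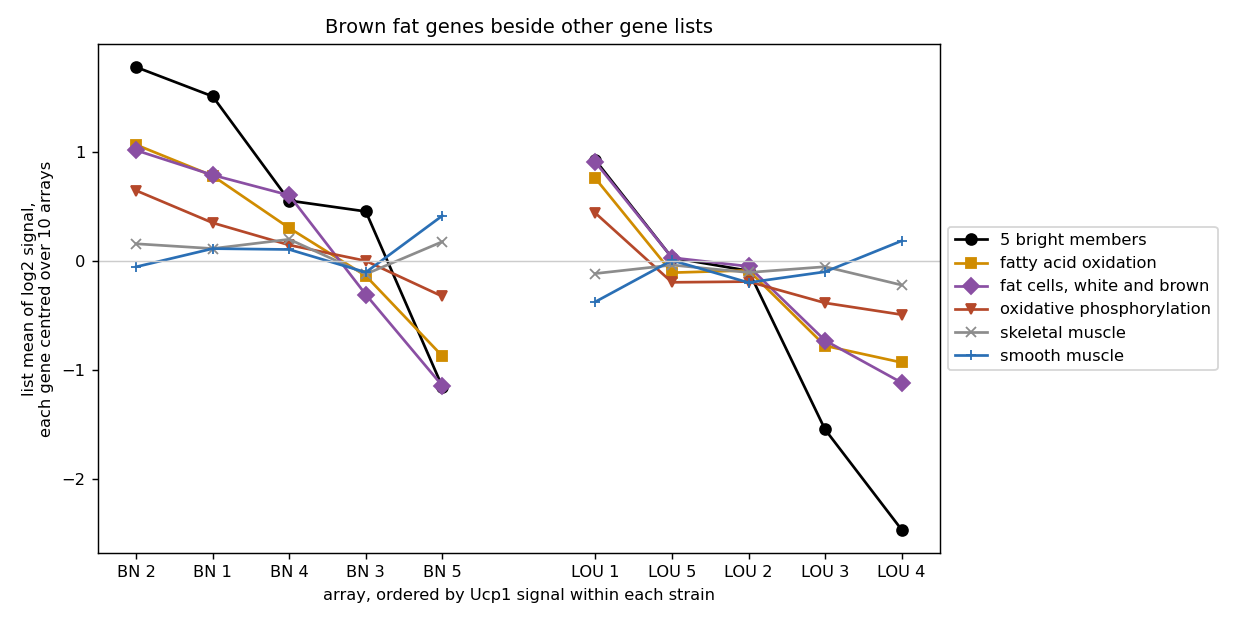
List means of log2 signal, each gene centred over the 10 arrays, on the BN arrays (left) and LOU arrays (right), ordered by Ucp1 within each strain. The 5 bright genes run from 1.78 to -1.16 in BN and from 0.93 to -2.47 in LOU, the fat cell and oxidation lists keep the same order in BN and, apart from LOU arrays 2 and 5, in LOU, and skeletal muscle markers stay between -0.22 and 0.20.

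Muscle markers were examined because Cpt1b, Fabp3, Cox8b and Cox7a1 are also muscle genes. Of 21 skeletal muscle markers measured, 11 were above background on all arrays and 5 on none, among them Myh4, Pvalb and Ryr1, named after their values were seen. Their summed signal was 4481 to 7148 in BN and 3374 to 4508 in LOU, of which Myh1 gave 3066 ± 837 in BN and 1394 ± 590 in LOU (limma adjusted p = 0.112) from a probe set type that can read related transcripts. This probe set had an r with Ucp1 of 0.83, and of the 5 probe sets of Myh1 the other 4 gave log2 differences of 0.33, 0.64, 1.39 and 1.64, the last 2 past the test (limma adjusted p = 0.00521 and 0.0131). The list mean lay between -0.12 and 0.20 in BN and between -0.22 and -0.04 in LOU, a narrower range than that of the bright genes. Acta1 and Tpm3, the next brightest, were at 634 ± 86.0 and 386 ± 56.3 in BN and 664 ± 101 and 436 ± 36.3 in LOU. The median over the 21, each read from its brightest probe set, was -0.06 and none passed. Myoglobin (Mb), on the same list, an oxygen store of muscle that is also made in brown fat, was named after its values were seen. It gave 888, 1229, 321, 141 and 111 in BN and 67.6, 40.3, 30.7, 10.8 and 14.7 in LOU, with no overlap and a log2 difference of 3.73 that did not pass (limma adjusted p = 0.0588). LOU arrays 3, 4 and 5 were not above background, so the size of this difference is uncertain. Of 11 heart markers, 1 was above background on all arrays, Pln, which smooth muscle also expresses and which was lower in BN (log2 -1.36, limma adjusted p = 0.0105). The part of muscle RNA in the muscle-shared genes was not tested.

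Smooth muscle markers ran against the brown fat genes over the arrays. All 10 smooth muscle markers had a negative r with Ucp1 over the arrays (median -0.69), and their list mean was highest on BN array 5 (0.42), the BN array with the lowest Ucp1. Of these 10, 8 had a difference above 0, with a median of 0.17. Acta2, Myh11 and Tagln differed by 0.07, 0.13 and 0.22 (log2, BN minus LOU), none past the test. Endothelial markers (8 measured, median difference 0.13) and macrophage markers (8 measured, -0.31) had no gene past the test and a median r with Ucp1 of 0.28 and 0.48. Of 12 nerve markers 11 were above 0 (median 0.86), and Mbp, the myelin basic protein, was higher in BN by 1.73 (limma adjusted p = 0.046). Dbh and Npy, genes of the sympathetic nerves that drive brown fat, were at 678 ± 1380 and 1441 ± 2366 in BN, where BN array 3 carried most of the signal, and at 85.3 ± 115 and 364.5 ± 207 in LOU (SD, n = 5).

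Counterparts of the thermogenic forms that serve other tissues were read beside them. Of 16 measured paralogs 12 were above 0 with a median of 0.10, and none passed. Cox8a, the form of the subunit found in most tissues, was at 4563 ± 1492 in BN and 3129 ± 738 in LOU (log2 0.52, limma adjusted p = 0.388), against 2.58 for Cox8b. Fabp4, the carrier of fat cells, was at 2097 ± 1131 in BN and 2141 ± 1493 in LOU (log2 0.06), against 1.75 for Fabp3. Elovl5, a ubiquitous elongase, was at 1821 ± 245 in BN and 1681 ± 281 in LOU. Cpt1a, the liver form of the enzyme and chosen after its values were seen, gave 210, 235, 360, 308 and 358 on BN arrays 1 to 5 and 206, 229, 327.5, 372 and 256 on LOU arrays 1 to 5. Cpt1a was lowest where Cpt1b was highest, with r = -0.88 with Ucp1 where Cpt1b had 0.98 (10 arrays, centred on strain).

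The 10 genes most like Ucp1 over the 10 arrays, by Pearson's r after centring on strain among 7364 other named genes above background on all arrays, were Lpl, Chchd10, Gpd1, Slc25a20, Etfb, Chchd2l3, Acaa2, Ephx2, Tmem120a and Etfrf1, with r from 0.971 to 0.985. All points share the same 10 RNA samples, so r is given as a description with no test. Lpl, the lipase that frees fatty acids from blood lipoproteins, was at 868 to 4374 in BN and 1116 to 5331 in LOU, and Gpd1, which makes glycerol phosphate, at 1218 to 10872 in BN and 906 to 7937 in LOU. Slc25a20 carries acylcarnitine made by CPT1 into the mitochondrion, Etfb passes electrons from fatty acid oxidation to the respiratory chain and Acaa2 catalyses the last step of the oxidation cycle. Chchd10, a mitochondrial protein of muscle and brown fat, was at 887 to 8230 in BN and 632 to 6040 in LOU. The log2 differences of the 10 genes lay between -0.13 and 0.99, and none passed limma's test.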

How the data were processed

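Biotin-labelled cRNA from 10 abdominal aorta samples was hybridised to Affymetrix expression arrays, per the labels' protocols. The authors deposited 1 intensity per probe set on a linear scale. The submitters' processing notes name RMA with no version, but the deposited intensity has a lowest value of 0 and a highest of 22220, and trimming 2% gave means of 200.05 to 200.06 throughout, so it was read as linear signal already scaled by array. Log2(signal) was computed here, with 4 values of 0 set to 0.1.

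Differences, BN minus LOU, were fitted in R 4.3.3 by limma 3.58.1, using lmFit and eBayes with strain as the only term on all 10 arrays. The 57 controls were dropped first, and two-sided p-values of the remaining 15866 probe sets were adjusted together (Benjamini-Hochberg, threshold 0.05). The script was tested on simulated data. Symbols were updated through the RefSeq table of GRCr8 (12783 probe sets with 1 symbol, 312 with several, 2771 with none). A gene of a list was read from its probe set with the highest mean signal. The background level, under which 95% of bacterial controls lie, was chosen after seeing the data. Signal over background and the number of arrays limit the precision, since arrays give no counts.

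Correlations used Python 3.11.15 with numpy 2.4.6. Named genes are every member, the 3 brightest of each list and any past the test, and the 10 most like Ucp1, and any other gene is marked as picked with its values known. The brightest genes of the endothelial and macrophage lists, Tnnt2 and Ryr2 of the heart list and Pmp22 of the nerve list were left out. None of these passed limma's test. The members and lists were chosen with earlier results of these data known. Alternatives were median centring, quantile normalization, a floor of 32, a pseudocount of 16, a filter on the dimmest 40%, an intensity trend, array weights, a block by replicate number and each array left out.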

Additional observations from a re-analysis of the deposited data

Results flagged for a closer look

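Cox7a1 on LOU array 4 stood apart from the other LOU arrays, at a signal of 25.0 against 10.0 to 10.4, with a gap that was 0.957 of the whole LOU range (Dixon's 95% critical value for 5 arrays is 0.71). The signal was not above that array's background level of 33.3. It was the only one of 16 sets of 5 log2 signals (8 genes in 2 strains) to pass this limit, and chance passes about 1 in 20 such sets. On the same array Ucp1, Cpt1b, Cox8b and Fabp3 had their lowest signals of all 10.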

How the results depend on the processing

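No member passed limma's test under any of the 19 alternatives, and the 146 member differences computed in them had adjusted p-values of 0.133 or more. With each array left out in turn, the differences ranged over 0.93 to 1.96 for Ucp1, -0.070 to 0.56 for Cidea, -0.033 to 0.87 for Cpt1b, 0.42 to 1.38 for Dio2, 0.32 to 1.86 for Ppargc1a, 0.83 to 1.62 for Cox7a1, 1.81 to 3.18 for Cox8b and 1.35 to 2.14 for Fabp3. Signs turned in 4 of the 146, for Cidea without BN array 2 or LOU array 3 or 4, and for Cpt1b without LOU array 4. Median centring, quantile normalization, the floor and the pseudocount turned no sign of a member, but the floor and the pseudocount lowered the median over the 8 to 0.54 and 0.67. With a floor of 32 the differences of Ucp1, Cidea, Cpt1b and Fabp3 were unchanged, and that of Cox8b was 2.53. Those of the dim genes fell, from 0.97 to 0.38 for Ppargc1a, 1.19 to 0.34 for Cox7a1 and 0.85 to 0.70 for Dio2. The count of probe sets past the test, 125, was 63 to 127 with 1 array left out, 204 with a pseudocount of 16, 186 with a floor of 32, 253 without the dimmest 40%, 242 with an intensity trend, 23 with the replicate block and, added after seeing the data, 263 among probe sets that every array of at least 1 strain showed above background. Of the 7 genes, 6 passed in correlation with Ucp1, 5 with a floor of 32, 4 to 6 with 1 array left out and 0 with the replicate block, at r of 0.59 to 0.98 for these 6. The share of all genes that would pass was not computed. Same-numbered arrays share only a number (correlations of their deviations -0.045 to 0.015), and no BN array was closest to the LOU array of its own number. Without BN array 5, r of Cox7a1 was -0.22, over a range of -0.22 to 0.70. The log2 range of Ucp1 was 1.40 to 3.62 in BN and 2.75 to 3.49 in LOU with 1 array left out. Relative to Ucp1, the strain difference of Cox7a1, -0.21, was 0.05 without LOU array 3 and 0.53 without LOU array 4, and ranged from -0.67 to 0.53. With the replicate block, Cox8b and Cpt1b relative to Ucp1 differed by 1.18 and -1.02 (exact permutation of pairs, adjusted p = 0.219 for both), a test that cannot pass, since 5 pairs give no p under 0.0625. Signal near background limits Ppargc1a, Dio2 and Cox7a1.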

Other observations

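Elovl6 and Acly, genes of fatty acid synthesis, and Aspg had higher means in BN and Cpt1c a lower one. None of these 4, chosen after their values were seen, passed limma's test. Elovl6, which elongates palmitate, gave 647, 943, 262, 809 and 174 on BN arrays 1 to 5 and 308, 173, 117, 52.0 and 187 on LOU arrays 1 to 5, with overlap at BN array 5 and BN array 3 (log2 1.71, limma adjusted p = 0.235). Acly, which supplies acetyl-CoA for synthesis, gave 3681, 5991, 2913, 3997 and 1064 in BN and 3192, 1188, 872, 533 and 1130 in LOU (log2 1.42, adjusted p = 0.287). Aspg gave 273, 410, 212, 258 and 15.7 in BN and 37.4, 19.0, 13.8, 10.7 and 16.6 in LOU, so that 4 of 5 BN arrays lay far above all LOU arrays and BN array 5 within them (log2 3.15, adjusted p = 0.123). BN array 5 and 4 of 5 LOU arrays were not above background, so the size of this difference is uncertain. Cpt1c, the brain form of the CPT1 enzyme, was lower on every BN array (19.9 to 93.5) than on any LOU array (111 to 231), a log2 difference of -1.60 that did not pass (adjusted p = 0.118).

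The gene whose pattern ran most against that of Ucp1 over the 10 arrays was Ankfy1, an endosomal protein named after its values were seen (r = -0.98 after centring on strain). It gave 274, 263, 325.5, 307 and 448 on BN arrays 1 to 5 and 273, 315, 377.5, 407 and 305 on LOU arrays 1 to 5, and was highest in each strain on the array with the lowest Ucp1.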
